A study of Mus musculus with 3 samples.

Results

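Stra8 and 9 other genes of the retinoic acid pathway were examined for CTCFL binding in mouse embryonic stem (ES) cells. The genes were chosen by their role in the pathway, with earlier results of these data known. They comprised Stra8, the 6 retinoic acid receptor genes Rara, Rarb, Rarg, Rxra, Rxrb and Rxrg, the retinoic acid-degrading enzymes Cyp26a1 and Cyp26b1, and the retinoic acid-producing enzyme Aldh1a2. All 10 were found among the 22365 protein-coding genes of the GENCODE annotation on mm9. A CTCFL peak was assigned to a gene if its center lay within -2 kb to +1 kb of a transcription start site (TSS), which is called the promoter interval here, inside the gene, or within 100 kb of a TSS. Of 7436 CTCFL peaks in the list, 27 were assigned to these genes, and no peak was assigned to more than 1 of them.

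The series holds 3 ChIP-sequencing libraries of ES cells grown with LIF on gelatin, and the 2 CTCFL libraries were made with a transgenic line. CTCFL carried V5 and GFP tags and was expressed from a doxycycline-responsive transgene that had been transfected into ROSA26-rtTA ES cells. For the induced library cells received doxycycline for 3 days, GFP-positive cells were sorted, and chromatin was precipitated with an antibody against V5. The same antibody was used on cells that were neither induced nor sorted, and an antibody against CTCF was used for the third library. For that library the sample labels name the transgenic line and the study's methods name normal ES cells, and it does not enter the values below. There was 1 library per condition, and the list of peaks analysed here belongs to the induced cells. It gives the start and end of each peak only, so that no number of reads, depth or enrichment stands behind the values below, no spread between replicates can be given, and no test was run. CTCF and non-induced values were not analysed here, so that sites bound by CTCF as well cannot be told apart from sites of CTCFL alone in this list. ES cells are not germ cells, and a transgene rather than the endogenous Ctcfl gene supplied the protein.

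CTCFL, or BORIS, is the germ cell paralog of CTCF and shares its zinc finger domain, which recognizes a GC-rich DNA motif. Retinoic acid is made from vitamin A by retinol and retinaldehyde dehydrogenases and is cleared by enzymes of the CYP26 family. It acts through heterodimers of RAR and RXR receptors, which sit on response elements made of repeated half-sites, and in the germ line it induces Stra8, which is needed for entry into meiosis. In the fetal testis CYP26B1 keeps retinoic acid away from the germ cells.

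The peak inside Stra8 lay on a tandem repeat. Its units are shown because they carry the matches to the CTCFL consensus in this peak. They are read from the minus strand of mm9, which is opposite to Stra8 transcription, at the positions given. Capitals mark a match at 1 mismatch to a form of the CTCFL consensus with position 9 free, which was chosen after seeing the data. Against the consensus with position 9 fixed each stretch in capitals has 2 mismatches. Units without capitals hold no match to the free form. Units 1 and 12 lie upstream of the peak and the others inside it:

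Unit 1 of 54, chr6:34871209-34871238: cccatacactctaggagtcacgggtgaccc
Unit 12, chr6:34871548-34871577: cacgcacgctctaggagtcccgggtgatcc
Unit 23, chr6:34871886-34871915: cacggatCCTCTAGGAGTCGCaggtgaccc
Unit 24, chr6:34871915-34871944: cacacgttttctaggagtcgcgggtgatgc
Unit 29, chr6:34872107-34872136: cacacatCCTCTAGGAGTCGCaagtgaccc
Unit 30, chr6:34872136-34872165: cacacatCCTCTAGGAGTCGCaagtgaccc
Unit 33, chr6:34872226-34872255: cacagatCCTCTAGGAGTCGCtggtgaccc
Unit 36, chr6:34872348-34872377: cacgcatCCTCTAGGTGTCGCaagtgaccc
Unit 37, chr6:34872381-34872410: cacacatcatctaggagtcgctggtgaccc
Unit 42, chr6:34872532-34872561: cacatatCCTCTAGGAGTCGCaggtgacca

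The best-scoring site of each of 6 other peaks is shown in capitals with 20 bases on either side, as a contrast to the repeat. The sites of Rara intron 2 and Rxrb match the fixed consensus exactly, those of Rara intron 1, Rarg intron 8 and Cyp26b1 have 1 mismatch, and that of Aldh1a2 has 3. Best sites with 3 or 4 mismatches in Rarb intron 4, in Rarg intron 3 and in the other peak of Rara intron 1 are not shown. The sequences are from mm9, on the strand that carries the motif:

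Rara intron 2, chr11:98815737-98815790, plus strand: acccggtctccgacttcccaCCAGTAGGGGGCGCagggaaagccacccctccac
Rara intron 1, chr11:98794582-98794635, plus strand: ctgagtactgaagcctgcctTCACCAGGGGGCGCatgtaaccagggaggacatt
Rarg intron 8, chr15:102069779-102069832, plus strand: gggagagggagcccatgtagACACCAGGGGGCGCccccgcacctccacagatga
Rxrb intron 4, chr17:34171257-34171310, plus strand: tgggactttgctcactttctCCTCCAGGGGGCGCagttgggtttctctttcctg
Cyp26b1 intron 2, chr6:84537723-84537776, minus strand: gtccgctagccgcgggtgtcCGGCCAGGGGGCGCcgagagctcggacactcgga
Aldh1a2 upstream, chr9:71063099-71063152, plus strand: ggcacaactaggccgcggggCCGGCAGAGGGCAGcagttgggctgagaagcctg

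CTCFL peaks were found inside or near most of the 10 genes but in the promoter interval of only Aldh1a2 and Cyp26b1. These 2 of 10 genes compare with 11.2% of all protein-coding genes (2512 genes, 95% Wilson interval 10.8 to 11.7%, which covers counting error only). With 10 genes, each gene is 10 percentage points, and the count is too small to be set apart from that share. A peak inside the gene was present in Stra8, Rara, Rarb, Rarg, Rxrb and Cyp26b1, that is in 6 of 10 genes against 14.6% of all genes. The 10 genes are longer than most, with a median span of 31910 bp against 15120 bp. Per 100 kb of gene they held 1.39 peaks against 0.391 over all genes. This density rests on 10 peaks, of which 3 lay in Rara. With peaks at or above the median width only, 4 of 10 genes had a peak inside, against 8.47% of all genes. Each gene is 10 percentage points here too, and whether the difference exceeds counting error was not tested. Within 100 kb of a TSS a peak was present at 8 of 10 genes, against 60.3% of all genes, and Rxra and Rxrg had none. This count, too, is too small to be set apart from the share over all genes.

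**Figure D1:**
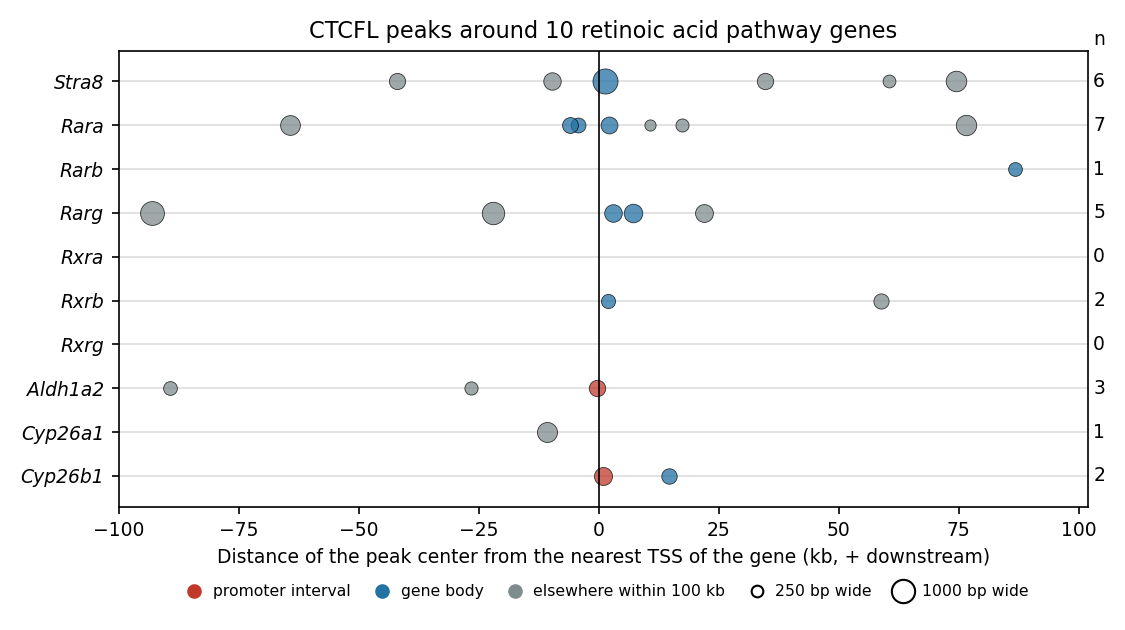
Each circle is a CTCFL peak assigned to 1 of the 10 genes, placed by the distance of its center from the nearest TSS of that gene in kb, with the area of the circle proportional to the width of the peak and n the number of peaks. Peaks in the promoter interval are seen at Aldh1a2 and Cyp26b1, the peak of Stra8 is the widest of the 27, and the rows of Rxra and Rxrg are empty.

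The distance from a TSS to the nearest peak center had a median of 2552 bp over the 10 genes and of 60904.5 bp over all protein-coding genes. It is the smallest distance over all TSSs of a gene, and the 10 genes have 1 to 6 TSSs each. With the first TSS only, the median over the 10 genes was 8337.5 bp. No median over all genes was taken at that setting. The 10 genes fell into 3 ranges. Aldh1a2, Cyp26b1, Stra8, Rxrb, Rara and Rarg had a peak center between 426 and 3069.5 bp from a TSS, and 7.73 to 13.3% of all genes had a peak as near as that. Cyp26a1 followed at 10711 bp. Rarb, Rxra and Rxrg were at 86690, 161541.5 and 228122 bp, beyond the median of all genes.

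**Figure D2:**
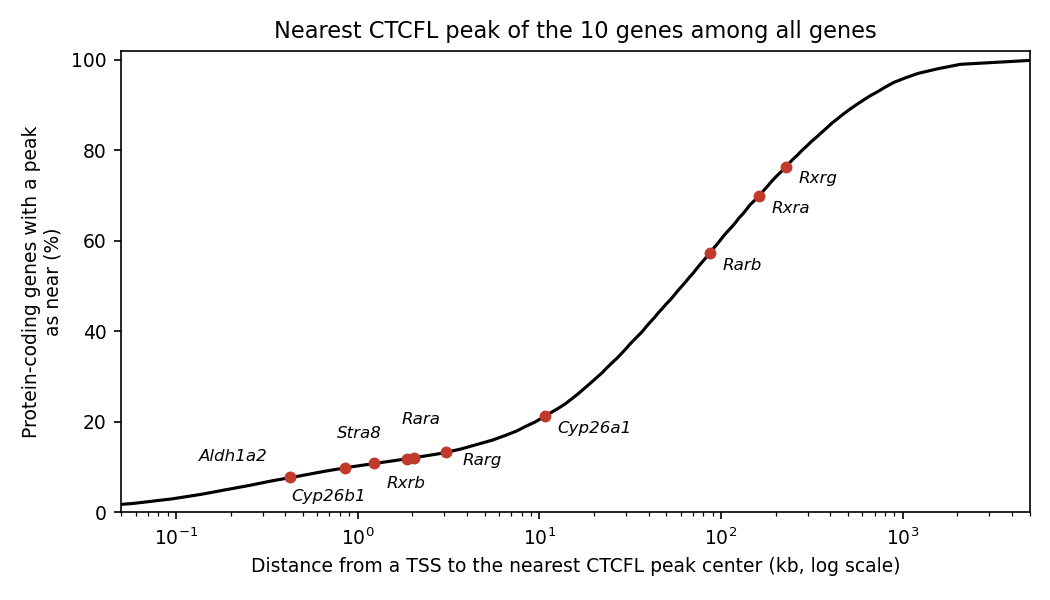
The line gives the percentage of all 22365 protein-coding genes with a CTCFL peak center at or nearer than the distance on the x axis (kb, log scale), and the points are the 10 genes. The 6 nearest genes lie together at the lower left, up to 13.3%, and Rarb, Rxra and Rxrg lie above 57%.

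Stra8 (ENSMUSG00000029848.4) spans 34870163 to 34889342 on the plus strand of chromosome 6 and has 3 annotated TSSs within its first 2 exons. Its intronic peak ran from 34871673 to 34872831 in intron 2, ahead of the exon with the start codon. The center lay 1238 bp downstream of the nearest TSS and 2089 bp downstream of the first, and was thus outside the promoter interval by 238 bp. With the interval extended to +2 kb, or with any overlap of the peak counted, it would be a promoter peak. With a width of 1159 bp the peak ranked 42 among 7436, and it was the widest of the 27 peaks. As near a peak was present at 10.9% of all genes.

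The region around Stra8 held 6 peaks within 100 kb of its TSSs, a number reached by 2.64% of genes, which have a median of 1. Widening the window to 200 kb added none, and 14.5% of genes had 6 or more peaks in that window. Among the 8 other protein-coding genes within 200 kb, 3 had a peak in their promoter interval. The peak at 3110062M04Rik (486 bp) was centered 152.5 bp upstream of a TSS. At Wdr91, which codes for a WD repeat protein of endosomes, the center was 43 bp downstream (561 bp wide). At 2010107G12Rik the center lay 161.5 bp downstream of an internal TSS (492 bp). Wdr91 is transcribed away from Stra8, and its promoter peak lay 9643 bp upstream of the first Stra8 TSS. The genes Cald1, Npn2, Agbl3, Tmem140 and Cnot4 and the 4 annotated pseudogenes and noncoding genes had no promoter peak. The remaining peaks of 304 and 778 bp lay 60525.5 and 74352.5 bp downstream of the nearest Stra8 TSS, between 2010107G12Rik and Cnot4.

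**Figure D3:**
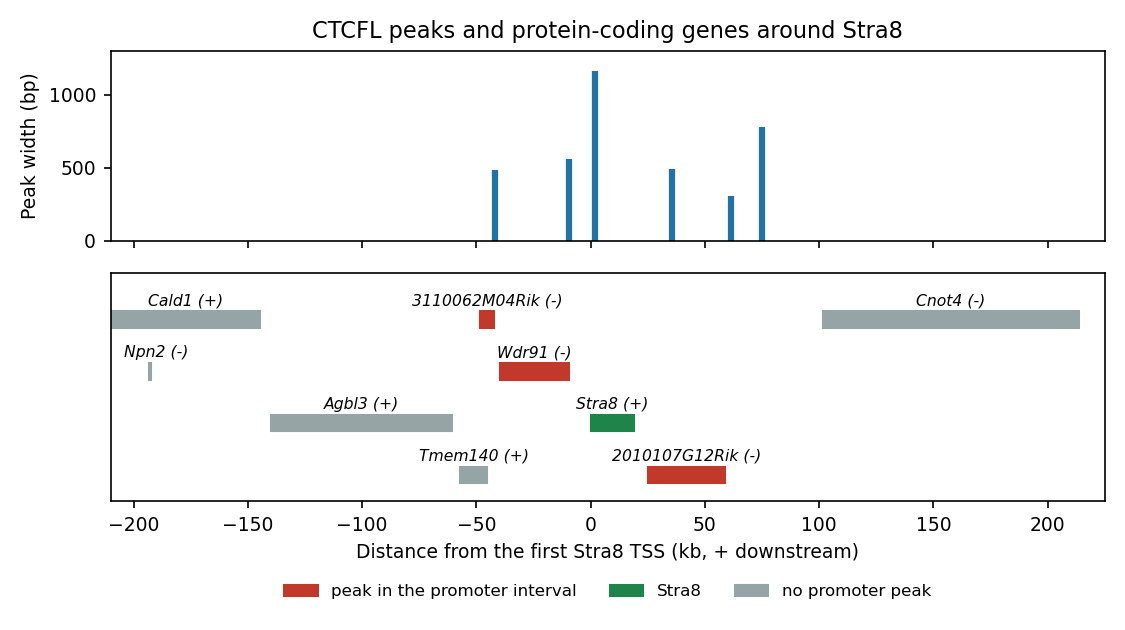
Bars in the upper panel are the 6 CTCFL peaks around Stra8, with their width in bp as height, and boxes in the lower panel are protein-coding genes with their strand, both by distance from the first Stra8 TSS in kb. The tallest bar, at 1159 bp, lies at the start of Stra8, and 3 neighboring genes carry a promoter peak.

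The tandem repeat at Stra8 comprised 54 units over 1721 bp, from 34871209 to 34872929, starting 155 bp after the end of exon 2. Units were found by the 9-base word ACTCCTAGA, the most frequent one in the peak, with up to 2 mismatches. Of the 54 units, 36 lay in the peak, 15 upstream of it and 3 downstream. Exact copies of the word numbered 26 in the peak. The 36 copies with up to 2 mismatches had a median spacing of 31 bp. Only 3 of 7436 peaks held more copies of their own most frequent 9-base word, and the median was 2. No other peak held 3 or more exact copies of the Stra8 word. Copies with mismatches were not counted in the other peaks, so that a diverged form of the repeat there would be missed. The units in the peak had a median identity of 85.7% to their consensus, from 71.4 to 96.4%.

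A CTCFL consensus was derived from 7383 peaks farther than 200 kb from the 10 genes and read CCNNNAGGGGGCGC, where N is any base and the leftmost C is position 1. Allowing 1 mismatch, it was found in 33.0% of all peaks and in 0.820% of flanking windows of the same width 2 kb away. The Stra8 peak held no match at this setting. At up to 2 mismatches it held 11 matches, more than any other peak (the next had 8), while 65.9% of all peaks held at least 1. Of these, 9 differed from the consensus by G9A and G11T, 1 by G9T and G11T (unit 36) and 1 by C1G and G11T (unit 25). Among the 3495 sites from which the consensus was read, position 9 was G in 77.7%, T in 14.6% and A in 5.12%. Position 11 was G in 96.7% and T in 2.69%. These sites were selected for similarity to the consensus, so that the shares do not measure which bases CTCFL tolerates. With position 9 free, a form chosen after seeing the data, the peak held 10 matches at 1 mismatch, with 7 in the next peak. As the form was chosen with these sites known, its rank lends no support. At this setting 43.9% of all peaks and 2.17% of flanking windows held a match. All 10 matches of the Stra8 peak had G11T, lay on the minus strand and fell between 34871895 and 34872554. The best score of the peak on the weight matrix was 12.6 bits, at a percentile of 42.8 among all peaks and below their median of 14.003.

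The matches were unevenly spread over the repeat. Of the 36 units in the peak, 9 held a match with position 9 free, and the other match lay between units. None of the 15 units upstream and none of the 3 downstream held one, although their median identity to the unit consensus was 85.7 and 82.1%. In these upstream units the 14 bases that align with the matches carried C1G in 12 of 15 and G13C in 9 of 15, against 9 and 7 of 36 in the peak. G11T was common to both, with 15 of 15 and 34 of 36. However, the word by which units were found, read on the minus strand, itself carries G9A and G11T. Exact copies of it made up 13 of the 15 upstream units and 26 of the 36 in the peak. This likeness thus follows largely from the search. The units are not independent of each other, as only 10 of the 15 upstream units were distinct sequences. Units 7 to 15 all carried C1G, G9A, G11T and G13C, and so did units 16 to 18 inside the peak. The upstream part also differed in how well reads can be placed. Of the 36-base windows that start between the beginning of the repeat and the peak, 44.8% were unique in the genome, against 94.7% in the peak. Units 10 to 16 had no unique window at all, and the upstream edge of the peak lies in unit 16. The part of read placement in this edge was not tested.

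**Figure D4:**
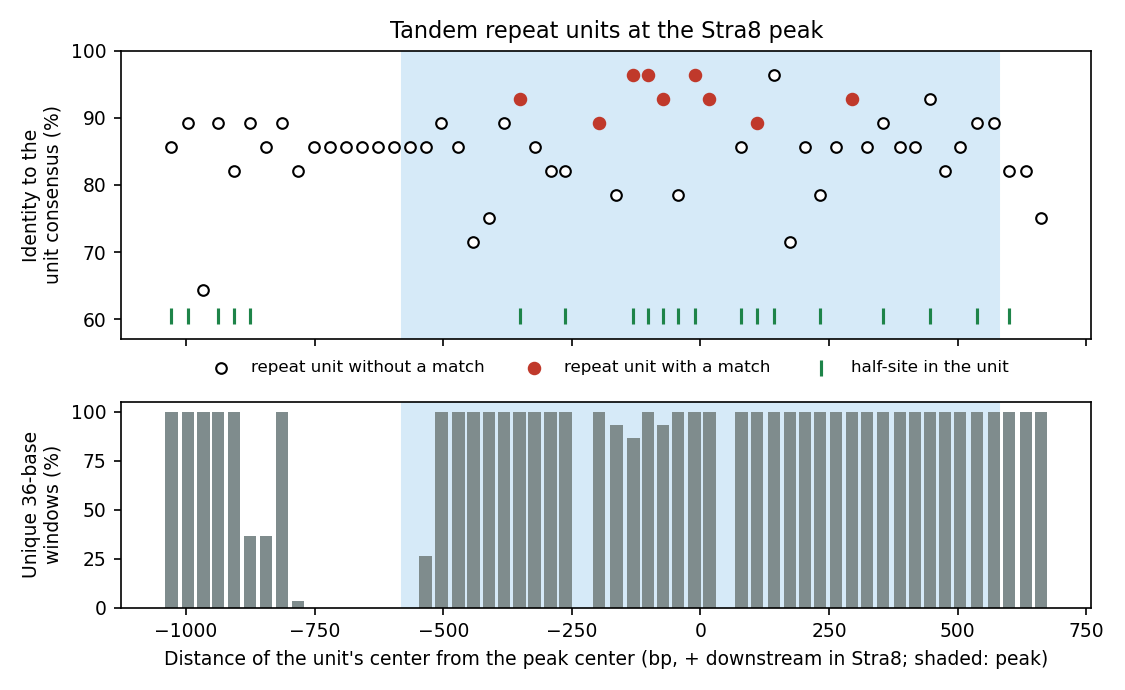
Circles in the upper panel are the 54 repeat units by their distance from the center of the Stra8 peak (bp) and their identity to the unit consensus (%), filled where the unit holds a match with position 9 free, and ticks mark units with a retinoic acid receptor half-site. Bars in the lower panel give the percentage of unique 36-base windows per unit. Filled circles are seen in the shaded peak only, and bars fall to 0 around its left edge.

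Retinoic acid receptors bind pairs of half-sites, which were searched as AGGTCA or AGTTCA or GGGTCA or GGTTCA on both strands. The Stra8 peak held 15 half-sites, the highest number of all peaks, with 13 in the next and a median of 1. This was 12.9 per kb against 2.13 per kb over all peaks. All 15 lay on the plus strand, 14 of them as GGGTCA, since the repeat unit itself reads GGGTCA at its start. In 6 units of the peak a half-site and a CTCFL match lay side by side on opposite strands. The half-sites had a median spacing of 52 bp and a shortest spacing of 20 bp, and none formed a direct repeat with a spacer of 1, 2 or 5 bp. The promoter interval of Stra8 held none of these direct repeats either. A match of letters does not show that a receptor binds.

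The receptor genes had intronic CTCFL peaks or none. Rara (ENSMUSG00000037992.9, chromosome 11, 98789132 to 98836256), which codes for the receptor RAR alpha, had 7 peaks within 100 kb, a number reached by 1.17% of genes. Of these, 3 lay in introns. The first (98794479 to 98794886, 408 bp) was centered 4329.5 bp upstream of an internal TSS, and the second (98802798 to 98803321, 524 bp) 2034.5 bp downstream of another. The third (98815519 to 98815984, 466 bp) lay 5974.5 bp upstream of an internal TSS and held an exact match to the consensus. Its best score of 21.6 bits was at the 98th percentile of all peaks. Of the 4 other peaks of the region, 3 lay at TSSs of neighboring genes, 67 bp upstream at Wipf2, 839 bp downstream at Gjd3 and 198.5 bp downstream at Igfbp4. The remaining one (98836718 to 98836949, 232 bp), the narrowest of the 27, was 10647.5 bp from a Rara TSS and 7496.5 bp from the TSS of Gjd3.

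Rarg (ENSMUSG00000001288.8, chromosome 15, 102065369 to 102087948), which codes for RAR gamma, had 5 peaks within 100 kb (5.79% of genes had as many). Peaks in intron 3 (102073576 to 102074147, 572 bp) and intron 8 (102069482 to 102070117, 636 bp) were centered 3069.5 and 7131.5 bp downstream of the nearest TSS. The intron 8 peak held a match with C1A as the only difference. The intron 3 peak had a best score of 4.53 bits, the lowest of the 27 peaks. Both of its wide neighbors lay at other genes, Mfsd5 (924 bp, 14.5 bp downstream of the TSS) and Aaas (1049 bp, 199 bp downstream).

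Rarb (ENSMUSG00000017491.7, chromosome 14, 17263356 to 17651381) is the longest of the 10 genes, at 388026 bp, and codes for RAR beta, which is itself induced by retinoic acid. It had a single peak (17321121 to 17321471, 351 bp) in intron 4, 86690 bp downstream of the nearest TSS, with no consensus match at up to 2 mismatches.

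The genes for the RXR partners differed. Rxrb (ENSMUSG00000039656.9, chromosome 17, 34168757 to 34175338) had a peak in intron 4 (34171035 to 34171404, 370 bp), 1873.5 bp downstream of a TSS, with an exact match and a best score of 20.9 bits at a percentile of 95.2. A second peak, 58825.5 bp downstream, was nearest to H2-Oa. Rxra (ENSMUSG00000015846.8, chromosome 2, 27531960 to 27618477) and Rxrg (ENSMUSG00000015843.4, chromosome 1, 169528515 to 169569754) had no peak inside the gene or within 100 kb, as was the case for the 39.7% of all genes without one in that window. When TSSs of noncoding transcripts were counted as well, the intronic peaks of Rarg and Rxrb lay 158.5 and 366.5 bp downstream of a TSS and entered the promoter interval.

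Among the CYP26 genes, Cyp26b1 (ENSMUSG00000063415.5, minus strand of chromosome 6, 84521938 to 84543740) had 2 peaks and both were inside the gene. The peak from 84537478 to 84538074 (597 bp) was centered in intron 2, 856 bp downstream of an internal TSS and 5964 bp downstream of the first. It held a match with C2G as the only difference. The peak from 84523849 to 84524288 (440 bp) was centered in the 3' UTR and reached the stop codon, with a best match of 2 mismatches, and it was the only one of the 10 peaks inside genes that was centered in an exon. Cyp26a1 (ENSMUSG00000024987.5, chromosome 19, 37772298 to 37776018) had 1 peak (37761218 to 37761956, 739 bp) 10711 bp upstream of its TSS. This peak lay inside the adjacent Cyp26c1, 1516 bp downstream of the TSS of that gene, and held a match at 1 mismatch.

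Aldh1a2 (ENSMUSG00000013584.5, chromosome 9, 71063596 to 71144050), which codes for retinaldehyde dehydrogenase 2 of the embryo and gonad, had the nearest peak of the 10 genes. The peak from 71062922 to 71063418 (497 bp) was centered 426 bp upstream of the single TSS. The 1-kb region around this TSS had an observed to expected CpG ratio of 0.929, against a median of 0.553 over all genes. The peak held no match at up to 2 mismatches. Its best site had G8A, G13A and C14G and scored 17.3 bits, at a percentile of 71.7. These bases are common alternatives among the sites selected for the consensus, where A made up 27.8% at position 8 and 35.2% at position 13 and G 28.2% at position 14. Further peaks of 351 and 322 bp lay 89308 and 26615.5 bp upstream of the TSS.

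Taking the 27 peaks together, their width had a median of 497 bp and a range of 232 to 1159 bp, and the median of all peaks was 454 bp. With 1 mismatch allowed, 8 of the 27 held the consensus (29.6%), and with 2 allowed 18 did (66.7%), near the 33.0 and 65.9% of all peaks. Exact matches were found in 2 peaks, those of Rara and Rxrb, or 7.41% against 7.73%. The GC content had a median of 58.4%, against 52.6%. Peaks centered in the promoter interval of any protein-coding gene numbered 11 of 27 (40.7%, against 31.3% of all peaks), and in 9 of these 11 the promoter belonged to another gene (3110062M04Rik, Wdr91, 2010107G12Rik, Wipf2, Gjd3, Igfbp4, Mfsd5, Aaas and H2-Oa). A gene of the 10 was the nearest gene for 10 of the 27 peaks. In 25 of the 27 peaks (92.6%) every 36-base window was unique in the genome, against 82.0% of all peaks. None of the 27 fell below 90% unique windows, as 463 of all 7436 peaks did. The 27 peaks are too few to set these counts apart from those of all peaks.

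Direct repeats of half-sites, the classic retinoic acid response elements, were found in the promoter intervals of 4 of the 10 genes, against 7.28% of all genes. The intervals of all TSSs of a gene were searched, so that genes with more TSSs offered more sequence. Rara has 6 TSSs, Rxra 5, Rarb 2 and Cyp26a1 1. Neither this share nor those by spacer below were adjusted for the number of TSSs. The 5 elements are shown because none of them lay in a CTCFL peak. Capitals mark the half-sites, and the sequences are from mm9:

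Rarb, spacer of 5 bp, chr14:17408027-17408043, minus strand: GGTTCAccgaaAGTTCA
Rara, spacer of 5 bp, chr11:98821322-98821338, plus strand: AGTTCAgcaagAGTTCA
Cyp26a1, spacer of 5 bp, chr19:37772266-37772282, minus strand: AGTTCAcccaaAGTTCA
Cyp26a1, spacer of 5 bp, chr19:37770399-37770415, plus strand: GGGTCAcaggcGGGTCA
Rxra, spacer of 1 bp, chr2:27566249-27566261, plus strand: GGGTCAtGGGTCA

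A spacer of 5 bp was present at Rara, Rarb and Cyp26a1, that is at 3 of 10 genes and at 1.32% of all genes. A spacer of 1 bp was present at Rxra alone, against 2.81% of all genes. A spacer of 2 bp was present at none of the 10 genes, against 3.42%. The element of Rarb was centered 49 bp upstream of an internal TSS, and those of Cyp26a1 24 and 1891 bp upstream of its TSS. The Rara element lay 396 bp upstream of an internal TSS and the Rxra element 152 bp downstream of another. The nearest CTCFL peak center was 5578.5 bp away at Rara, 8820 and 10687 bp at Cyp26a1, 86739 bp at Rarb and 195836.5 bp at Rxra. None of the 4 genes with such an element was among the genes with a promoter peak, Aldh1a2 and Cyp26b1. Over all genes, 223 of the 1628 genes with an element (13.7%) had a promoter peak, against 11.2% of all genes. With 4 genes, the lack of overlap cannot be set apart from these shares. None of the 27 peaks held a direct repeat, and 0.713% of all peaks did.

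A wider list of 66 genes covered retinoic acid synthesis, transport, signaling and response, and also 8 germ cell genes around meiotic entry. A promoter peak was present at 10 of the 66 (15.2%) against 11.2% of all genes, and at 8 of 56 (14.3%) without the 10 genes above. Of the 10 genes with a promoter peak, 4 were germ cell genes. The count is too small to be set apart from the share over all genes. Peaks inside the gene were present at 16 (24.2%) and peaks within 100 kb at 47 (71.2%), against 14.6 and 60.3%. By role, 4 of 8 germ cell genes had a promoter peak. These were Rec8, a meiotic cohesin subunit (center 86 bp downstream of the TSS, width 651 bp), Dazl, a germ cell RNA-binding protein (18 bp downstream, 595 bp), Kit, the receptor of stem cell factor (759.5 bp downstream, 480 bp), and Gm4969 (233.5 bp upstream, 522 bp). Stra8 was the fifth germ cell gene with a peak inside or at the gene. The others of the 8, Dmrt1, Nanos2 and Sohlh1, had none there.

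In the role of retinoic acid synthesis and storage 3 of 16 genes had a promoter peak. Besides Aldh1a2 these were Rdh10, which makes retinaldehyde from retinol (21 bp downstream of the TSS, 441 bp wide), and Rdh11, a retinaldehyde reductase (256.5 bp downstream, 408 bp wide). Among coregulators it was 2 of 13. Med1, a Mediator subunit that contacts nuclear receptors, had a peak 71 bp downstream of the TSS (725 bp). Zfp423, a zinc finger partner of retinoic acid receptors, had one 1655 bp upstream (705 bp). No promoter peak was found at the 6 receptors, at 9 genes of retinoid binding and transport, or at 11 target genes with a described response element, such as Hoxb1 and Meis1. The last 2 groups had no peak inside a gene either, although 6 of 9 and 9 of 11 had one within 100 kb. With 3 to 16 genes a role, these shares rest on single genes.

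**Figure D5:**
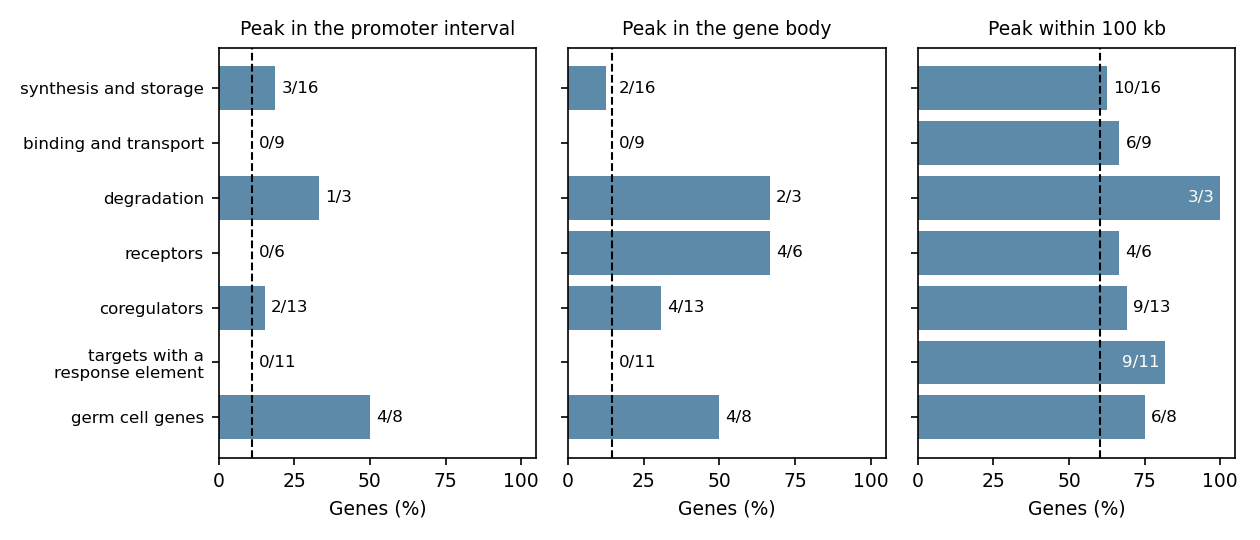
Bars give the percentage of genes of each role in the list of 66 with a CTCFL peak in the promoter interval, inside the gene or within 100 kb of a TSS, with the number of genes beside them, and dashed lines give the percentage over all protein-coding genes. Germ cell genes stand highest in the left panel with 4 of 8, and receptors, transport genes and target genes are at 0 there.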

How the data were processed

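ES cells were profiled by ChIP-sequencing with 1 library each for CTCFL-V5-GFP in induced cells, CTCFL-V5-GFP in non-induced cells and CTCF. Per the study's methods, 36-bp reads were mapped with ELAND to the NCBI build of the mouse genome, and BOWTIE on mm9 and MACS are named for the comparative analysis. The deposited file holds another kind of value, the start and end of each peak, and does not say which aligner or threshold made it. Depth per sample is therefore unknown. Starts were converted to count from 1, and a peak was placed by its midpoint.

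Distances were taken to TSSs of protein-coding transcripts of GENCODE vM1 on the same build, with Python 3.11.15, pysam 0.24.0 and numpy 2.4.6. The consensus was grown from the 8-base word most enriched in the central 200 bp over windows 2 kb away, in 10 rounds, and a base was fixed at 60% or more. Scores are log2 odds in bits. Uniqueness was searched over both strands of the whole genome. Named were the 10 genes, genes within 200 kb of Stra8, listed genes with a promoter peak and the genes nearest to a peak; Dmrt1, Nanos2, Sohlh1, Hoxb1, Meis1 and Cyp26c1 were named after their values were seen. The genes and lists were chosen with earlier results of these data known. Scripts were tested on simulated data. No column of other samples was present.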

Additional observations from a re-analysis of the deposited data

How the results depend on the processing

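No paired analysis was possible because there was 1 library per condition and the values come from 1 peak list. Of 76 alternatives over 12 results, 44 left the value within its counting interval or margin, 32 moved it and 0 reversed it. Promoter peaks were present at 4 of the 10 genes with all annotated transcripts or with an interval of -2 kb to +2 kb, and at 1 with the first TSS only or with -1 kb to +0.5 kb, against 2. The assigned peaks numbered 17 at or above the median width and 53 with a window of 200 kb, against 27. The Stra8 distance was 2089 bp from the first TSS and 659 bp from the peak's edge, against 1238 bp. The median distance of 2552 bp became 1635.75 bp with all transcripts, 8337.5 bp with the first TSS, 2278.5 bp from the peak's edge and 6890.25 bp with the wider peaks.

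Over all genes, the share with a promoter peak was 11.99% with all transcripts, 10.02% with the first TSS, 11.7% with any overlap, 7.51% with the wider peaks, 10.8% with peaks of at least 90% unique windows, 9.23% with the narrow and 12.03% with the wide interval. The share with a peak inside the gene was 17.3% with any overlap, 8.47% with the wider and 14.04% with the unique peaks. The share with a peak within 100 kb was 61.0% with all transcripts, 59.3% with the first TSS, 43.7% with the wider and 58.4% with the unique peaks, and 46.1 and 74.1% in windows of 50 and 200 kb. Consensus matches in the Stra8 peak went from 0 to 11 at up to 2 mismatches and to 10 with position 9 free, which was chosen after seeing the data. Peaks of the 10 genes with a match went from 8 to 2 for exact matches and 18 at up to 2 mismatches. The list gives no depth, so that no value could be weighed by it.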
